A study of Mus musculus with 16 samples.

Results

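Lactylated distal enhancers were defined here as places in the macrophage genome that carried histone H3 lysine 18 lactylation (H3K18la) together with H3 lysine 27 acetylation (H3K27ac) far from any H3 lysine 4 trimethylation (H3K4me3). Peaks of a mark that overlapped by at least 1 bp were merged across its 4 lists, and a merged region with a peak in all 4 lists was called shared. The members were chosen by 3 criteria applied to shared H3K18la regions on chromosomes 1 to 19, X and Y, namely a width under 8 kb, a distance of over 10 kb from every H3K4me3 peak of any list, and overlap with a shared H3K27ac region. There were 1182 of them among 9325 shared H3K18la regions and 29837 H3K18la regions of any list. Of the 9325, 1998 lay over 10 kb from H3K4me3. The rule used the peaks of H3K18la, H3K27ac and H3K4me3, so the presence of these marks at the members is their definition and not a result. Because a peak was needed at both times, a region that gained or lost its H3K18la peak altogether could not be a member.

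The libraries were CUT&Tag profiles, in which an antibody guides a transposase to chromatin that carries a mark, from macrophages sorted as CD45+CD11b+F4/80+CD64+ cells out of the calf muscle of C57BL6J wild type male mice aged 8 to 12 weeks after hind limb ischemia. The groups were 4 days post ischemia (4 dpi) and 2 days post ischemia (2 dpi), with 2 libraries for each of 4 marks at each time, 16 in all, and the fourth mark was H3 lysine 27 trimethylation (H3K27me3). All mice had undergone ischemia, and no uninjured muscle was among the groups. The gate takes every cell with these surface proteins, so a change in the mix of macrophages and a change of chromatin within a cell cannot be told apart.

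H3K18la is a histone mark that links chromatin to lactate, a product of glycolysis, and it is found at active promoters and at enhancers. H3K27ac marks active enhancers and promoters, whereas H3K4me3 is concentrated at promoters, so that H3K27ac away from H3K4me3 is a usual sign of an active distal enhancer. H3K27me3 is laid down by Polycomb repressive complex 2 and marks silenced chromatin.

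The 16 peak lists held 12060 to 35971 peaks. The H3K18la lists had 15511 and 17578 peaks at 4 dpi and 27578 and 15190 at 2 dpi, and the H3K27ac lists had 35971 and 31487 at 4 dpi and 29872 and 24976 at 2 dpi. H3K27ac 4 dpi replicate 1 stood apart, since its peaks covered 205 Mb against 37.8 to 65.3 Mb in the other 3 H3K27ac lists, and its label carries a different run code from the one they share. The H3K18la libraries share a run code with those of H3K4me3 and H3K27me3 and not with H3K27ac. Read numbers are not part of the lists, so depth is unknown, and the signal was not normalised between lists. Strength is therefore given as a percentile, the rank of a region's summed signal among all shared regions of that mark in the same list, with 0 the lowest and 100 the highest. Nothing in the labels ties libraries to separate mice, and p-values measure only the spread between these libraries.

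The members were narrow, with a median width of 2590 bp and a range of 1022 to 7919 bp. Their median distance from the nearest H3K4me3 peak was 27.02 kb, with 403 members at 10 to 20 kb, 490 at 20 to 50 kb, 182 at 50 to 100 kb and 107 beyond 100 kb. The 3 members nearest the distance limit lay 10014, 10018 and 10032 bp from H3K4me3 and had mean H3K18la percentiles of 40.6, 37.8 and 13.3. The 3 regions just inside the limit that were left out lay 9988, 9968 and 9928 bp away, with mean percentiles of 75.6, 41.9 and 37.9. The 3 widest members measured 7919, 7918 and 7913 bp, with mean percentiles of 98.2, 92.0 and 94.4. Among the 14 wider regions that otherwise met the rule, the narrowest were 8214, 8326 and 8391 bp wide, with mean percentiles of 95.9, 95.2 and 97.1. With 3 regions on each side of a limit, these values cannot show whether H3K18la strength breaks there. The farthest member, chr5:119499940-119501928 (GRCm39, as are all coordinates here), was 751.8 kb from H3K4me3 and was named for its distance after the values were seen. Its H3K18la percentile was 72.3 and 41.8 at 4 dpi and 53.5 and 41.4 at 2 dpi.

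Members were found on every chromosome except Y, which had 0 members among 7 shared H3K18la regions. They made up 9.09% of the shared H3K18la regions of chromosome X (8 of 88) and 18% of those of chromosome 16 (66 of 366), with the remaining chromosomes in between. Of the 1182 members, 389 (32.9%) had another member within 10 kb, in 174 groups of up to 6. Grouped members ranked somewhat higher for H3K18la than lone ones, with medians of 51.0 and 54.9 in the 4 dpi libraries and 51.2 and 57.2 in the 2 dpi libraries, against 44.4, 49.8, 47.4 and 49.4 for lone members in the same order. For H3K27ac the gap was wider, at 78.2 and 66.9 at 4 dpi and 65.7 and 59.8 at 2 dpi for grouped members, against 54.5, 40.9, 36.2 and 31.6 for lone members. Grouped members can share a single H3K27ac region, so these medians describe the regions and were not tested. The densest run was on chromosome 5, chr5:53512379-53614281, with 9 members that lay 51.95 to 115.4 kb from H3K4me3. Their mean H3K18la percentiles spanned 22.6 to 95.5 and their mean H3K27ac percentiles 64.1 to 91.9. The next runs held 6 members each, and among them chr4:47250499-47334236 spanned 83.7 kb with H3K18la from 10.6 to 94.9, and chr9:70155568-70226806 spanned 71.2 kb with H3K18la from 29.6 to 69.7. Strong and weak members thus stood side by side within a run.

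H3K18la at the members was of middling strength among the shared H3K18la regions. Their median percentile was 47.1 and 51.3 in the 4 dpi libraries and 48.3 and 51.9 in the 2 dpi libraries. It was higher in every library than that of 1077 lactylated promoter-proximal regions, which lie within 10 kb of H3K4me3 without touching it and had medians of 40.5 and 42.8 at 4 dpi and 41.9 and 45.4 at 2 dpi. The difference was 6.99 ± 0.985 percentile points (SD over 4 libraries, higher in 4 of 4). An exact 2-sided sign-flip permutation test over the libraries gave p = 0.125, the smallest it can give with 4 libraries, and 0.125 after adjustment over 4 such differences, so no difference of this kind could pass 0.05. Against 4102 lactylated promoter regions, with medians of 56.3 and 55.3 at 4 dpi and 57.0 and 53.5 at 2 dpi, the members' difference was −5.85 ± 3.7 points (SD over 4 libraries, lower in 4 of 4, exact permutation p = 0.125). This order rested on the summed signal. By the maximum signal of a region the members were 1.02 ± 1.96 points higher than the promoter regions, in 3 of 4 libraries (exact permutation p = 0.375). Promoter regions were wider, with a median of 2814 bp against 2590 bp for members, and across members the width went with the summed signal (Pearson r = 0.70, Spearman rho = 0.71, over 1182 members that share libraries). At the other end, 800 distal H3K18la regions without a shared H3K27ac region had median percentiles of only 29.2 and 26.4 at 4 dpi and 24.5 and 27.9 at 2 dpi.

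**Figure D1:**
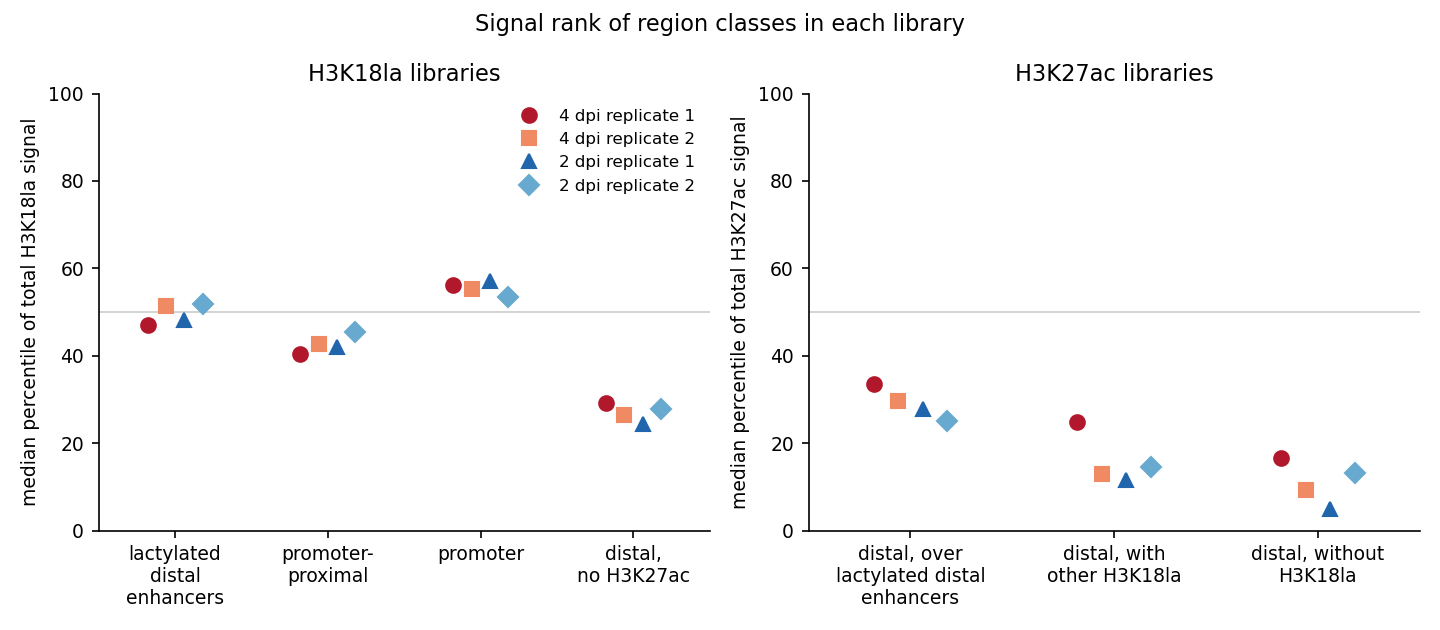
Median percentile of summed signal (vertical axis, 0 to 100) of region classes in each library, with H3K18la libraries on the left and H3K27ac libraries on the right. Each point is 1 library, red and orange for 4 dpi and blue for 2 dpi. Lactylated distal enhancers lie between 47.1 and 51.9 for H3K18la, above the promoter-proximal regions and below the promoter regions in every library.

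The strongest members were chosen for the highest mean H3K18la percentile over the 4 libraries. A mean near the top of the scale forces similar ranks in all 4, so their likeness between libraries is not a result. These members differed in their surroundings. The highest mean H3K18la percentile belonged to chrX:169113672-169116800, 3129 bp wide and 13.68 kb from H3K4me3, at 97.4 and 98.2 at 4 dpi and 99.6 and 99.7 at 2 dpi. On chromosome 12, chr12:8874873-8882791 reached 96.6 and 97.8 at 4 dpi and 98.9 and 99.3 at 2 dpi. On chromosome 10, chr10:120458129-120465668 reached 98.9 and 98.7 at 4 dpi and 96.8 and 97.5 at 2 dpi. A pair of members on chromosome 8 followed, chr8:127592247-127597044 with 98.4 and 97.2 at 4 dpi and 97.3 and 96.5 at 2 dpi, and chr8:127528355-127535128 with 98.6 and 98.2 at 4 dpi and 96.7 and 95.6 at 2 dpi. The sixth, chr5:53557260-53563074, belonged to the dense run on chromosome 5 and lay 103.2 kb from H3K4me3, at 96.8 and 95.5 at 4 dpi and 96.4 and 93.4 at 2 dpi. Over all 1182 members, the range of a member's H3K18la percentile over 4 libraries had a median of 26.68 points, with quartiles of 17.32 and 38.47.

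Members far from H3K4me3 ranked higher for H3K18la than near ones. Members at 10 to 20 kb had medians of 44.1 and 47.6 in the 4 dpi libraries and 44.7 and 48.0 in the 2 dpi libraries. Those beyond 100 kb had 55.4 and 57.4 at 4 dpi and 52.9 and 54.9 at 2 dpi. The far members were thus higher in each of the 4 libraries, which was not tested, and across all 1182 members the rank correlation of distance with mean H3K18la percentile was 0.10. Members beyond 100 kb were also wider, with a median of 2856 bp against 2590 bp at 10 to 20 kb, and summed signal went with width. The part of width in this order was not tested. H3K27ac showed no such order. It was 63.3 and 57.3 at 4 dpi and 43.5 and 41.1 at 2 dpi for members at 10 to 20 kb, and 65.5 and 45.1 at 4 dpi and 37.0 and 32.4 at 2 dpi for those beyond 100 kb, lower in 3 of the 4 libraries.

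**Figure D2:**
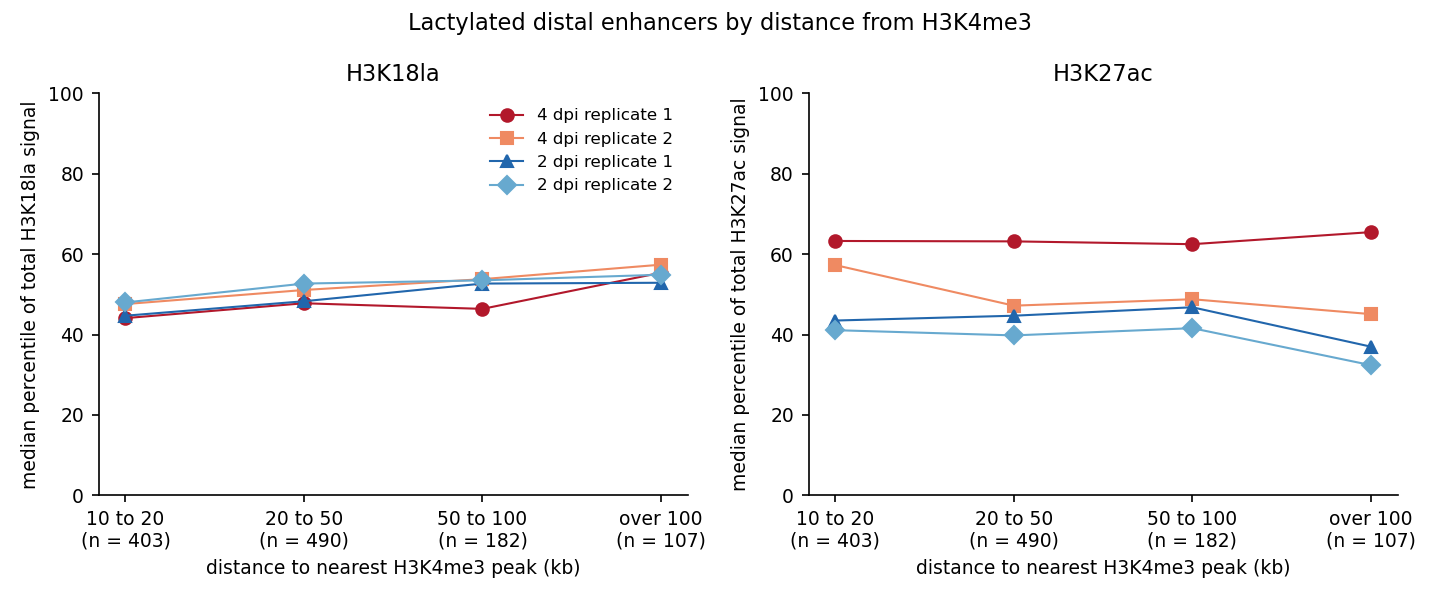
Median percentile of summed H3K18la signal (left) and H3K27ac signal (right) of lactylated distal enhancers in 4 classes of distance from the nearest H3K4me3 peak in kb, with 1 line per library and the number of members under each class. The H3K18la lines lie between 44.1 and 57.4, and the H3K27ac line of 4 dpi replicate 1 lies above the other 3 throughout.

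The shared H3K27ac regions under the members, as merged over 4 lists, were usually broader than the members themselves. The 1182 members lay on 1020 distinct shared H3K27ac regions, of which 145 held more than 1 member and none more than 4. The H3K27ac region of a member had a median width of 8.523 kb, 3.10 times the member's own, and 643 members (54.4%) had an H3K27ac region of 8 kb or more. These widths take in the longest call of any list. The length called in such a region had a median of 8316 bp in 4 dpi replicate 1, the broad library. It was 3204 bp in 4 dpi replicate 2 and 3236 and 1739 bp at 2 dpi, beside a median member width of 2590 bp. Of the members, 1015 (85.9%) were wholly covered by a shared H3K27ac region. An H3K27ac peak lay over the member itself in all 4 lists for 1052 members (89.0%), in 3 lists for 98, in 2 for 25 and in 1 for 7. For 168 members (14.2%) the H3K27ac region reached to within 10 kb of an H3K4me3 peak, and for 62 of these it overlapped it. Such regions include the strongest H3K27ac of any member, the 75.8 kb region over chr8:127592247-127597044, at percentiles of 99.9 and 100.0 at 4 dpi and 99.9 and 99.9 at 2 dpi. The next were a 63.01 kb region over chr11:8551156-8556607 with a mean percentile of 99.8, a 45.21 kb region over chr4:132315081-132321083 with 99.6 and a 40.84 kb region over chr15:31325168-31327700 with 99.6. All 4 touched an H3K4me3 peak outside the member, so their summed H3K27ac includes signal at that peak.

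Within the members the H3K18la maximum was sharply placed. The position of highest H3K18la differed between any pair of libraries by a median of 62.0 to 75.5 bp, and in 536 members (45.3%) all 4 maxima fell within 150 bp. The H3K27ac maximum lay close by, at a median distance of 132.0 to 294.0 bp over the 16 pairs of an H3K18la with an H3K27ac library, against 132.0 to 222.0 bp between H3K27ac libraries. In lactylated promoter-proximal regions the distance between the maxima of both marks was 3300 to 3620 bp, where the H3K27ac region was measured over its whole length and could include the promoter. In lactylated promoter regions it was 191.0 to 345.0 bp.

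The strength of both marks agreed only loosely from member to member. Over 1182 members the mean H3K18la percentile and the mean H3K27ac percentile had Pearson r = 0.34 and Spearman rho = 0.33, and by maximum signal r = 0.42 and rho = 0.43, with members that share an H3K27ac region counted separately. Some members ranked far higher for H3K18la. The H3K18la percentile of chr1:144191544-144196536, 65.82 kb from H3K4me3, was 94.1 and 92.3 at 4 dpi and 87.6 and 89.5 at 2 dpi, whereas its H3K27ac percentile was 16.2 and 55.7 at 4 dpi and 5.2 and 5.2 at 2 dpi. Likewise chr18:47130186-47132367 averaged 69.3 for H3K18la and 11.9 for H3K27ac, chr5:91425672-91432270 averaged 83.8 and 25, and chr13:34134762-34136755 averaged 70.2 and 12.7. Others ranked far lower. The member chr1:90964866-90966619 had H3K18la percentiles of 10.5 and 8.7 at 4 dpi and 22.6 and 17.7 at 2 dpi beneath an H3K27ac region at 99.7 and 99.5 at 4 dpi and 99.5 and 99.3 at 2 dpi. The other members of this kind, chr10:77385743-77387630, chr6:89287569-89289289 and chr11:31709204-31710701, averaged 14.6, 13.7 and 8.8 for H3K18la. All 4 of them were under 2 kb wide and lay beneath H3K27ac regions of 25.57 to 51.32 kb, so a narrow lactylated place is ranked there beside a broad acetylated one.

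Seen from the acetylated side, stronger distal H3K27ac regions were more often lactylated. There were 986 shared H3K27ac regions under 8 kb wide and over 10 kb from H3K4me3, and 490 of them (49.7%) held a shared H3K18la region, while 869 (88.1%) met an H3K18la peak of at least 1 list. By quartile of mean H3K27ac percentile, from the lowest to the highest, the share with shared H3K18la was 25.1%, 41.9%, 52.6% and 79.3%. These quartiles rest on summed signal, and the part of region width in this rise was not tested. The 490 regions at members had median H3K27ac percentiles of 33.6 and 29.7 at 4 dpi and 27.8 and 25 at 2 dpi. The 117 distal H3K27ac regions without any H3K18la peak had 16.6 and 9.3 at 4 dpi and 4.9 and 13.1 at 2 dpi. The difference was 18 ± 4.74 points (SD over 4 libraries, higher in 4 of 4), and the exact permutation p was again at its floor of 0.125. It was 20.7 ± 3.1 points by maximum signal, again in 4 of 4 libraries. The 379 distal H3K27ac regions with H3K18la in some lists only lay between, at 24.9 and 13.0 at 4 dpi and 11.7 and 14.5 at 2 dpi.

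Members seldom carried H3K27me3, at a level like that of lactylated promoter-proximal regions. An H3K27me3 peak overlapped 2.45% and 2.88% of members in the 4 dpi libraries and 1.78% and 1.44% in the 2 dpi libraries. It overlapped 2.23% and 2.51% of the promoter-proximal regions at 4 dpi and 1.86% and 1.02% at 2 dpi, and 4.95% and 5.05% of the lactylated promoter regions at 4 dpi and 5.02% and 3.46% at 2 dpi. Among the distal H3K18la regions without shared H3K27ac it overlapped 7.75% and 9.38% at 4 dpi and 5.5% and 4.5% at 2 dpi. The difference from these averaged −4.65 ± 1.55 percentage points (SD over 4 libraries, lower in 4 of 4), with the exact permutation p at the same floor of 0.125. H3K27me3 peaks covered more of the genome at 4 dpi, 79.8 and 80.9 Mb against 52.1 and 61.0 Mb at 2 dpi, and whether this sets the higher shares at 4 dpi was not tested. In all, 1141 members (96.5%) met no H3K27me3 peak and 13 (1.10%) met one in all 4 lists. These 13 were not weak in H3K18la as a group, with mean percentiles from 18.2 for chr6:89379894-89382864 to 75.3 for chr9:61228464-61230621. Their mean H3K27ac percentiles ran from 11.8 for chr12:104407945-104409750 to 90.8 for chr6:89379894-89382864, and most were below the median of 47.75 over all members. The chromosome 9 region had H3K18la percentiles of 81.1 and 66.1 at 4 dpi and 78.3 and 75.8 at 2 dpi, with H3K27ac percentiles of 33.3 and 24.4 at 4 dpi and 24.4 and 32.9 at 2 dpi. Another, chr1:184204800-184207120, had H3K18la percentiles of 71.7 and 72.4 at 4 dpi and 73.8 and 77.9 at 2 dpi. Peak lists cannot show whether opposing marks lay on the same chromosomes of the same cells.

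**Figure D3:**
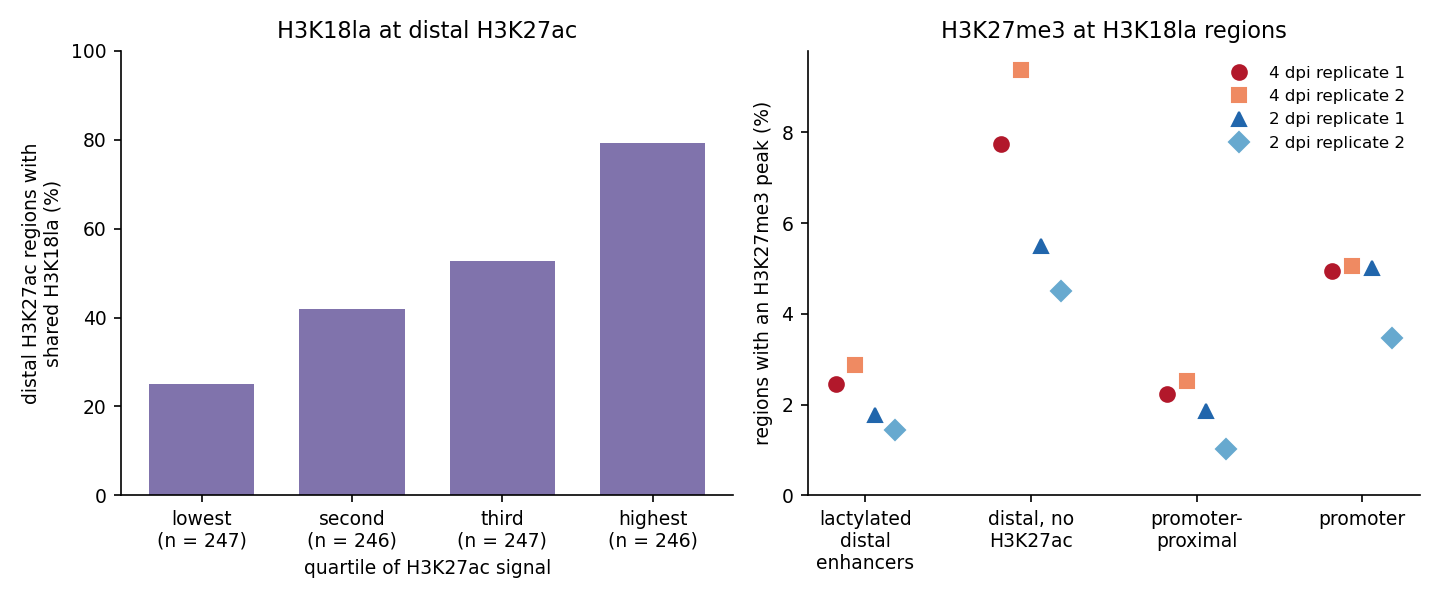
Left, percentage of distal H3K27ac regions that hold a shared H3K18la region (vertical axis, from 0) in each quartile of H3K27ac signal, rising over the quartiles with 25.1% in the lowest and 79.3% in the highest. Right, percentage of regions with an H3K27me3 peak in each H3K27me3 library (points, red and orange for 4 dpi, blue for 2 dpi), where lactylated distal enhancers lie between 1.44% and 2.88%.

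The time comparison asked which members gained or lost signal between 2 and 4 dpi, the days over which the macrophages of injured muscle change their state. Ranks were turned into normal scores, so a shift of 1 is 1 standard deviation of the rank distribution, and limma was fitted over all shared regions of a mark with Benjamini-Hochberg adjustment over all of them. The rule did not use the time contrast.

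H3K18la at the members was nearly level between the times. The median shift at 4 against 2 dpi was −0.02, with quartiles of −0.41 and 0.34, and the median percentile averaged 49.2 ± 3.0 at 4 dpi and 50.1 ± 2.6 at 2 dpi (SD, n = 2 each, exact permutation p = 0.667, where 0.333 is the smallest possible). At an adjusted p under 0.05 limma called 0 members higher and 3 lower at 4 dpi, against 0.0429% of all 9325 shared H3K18la regions higher (4) and 0.0751% lower (7). At an unadjusted p under 0.05, 94 members (7.95%) were higher and 123 (10.4%) lower, against 7.15% and 7.61% of all shared regions. The 3 calls depended on the measure and on single libraries. Under these settings, counts at unadjusted p are given without the share of all shared H3K18la regions. With maximum signal (79 members lower at unadjusted p), with mean signal per called base (56) and without H3K18la 2 dpi replicate 2 (55) limma called 0 members lower, and without H3K18la 4 dpi replicate 2 it called 44, beside 228 (2.45%) of all shared H3K18la regions.

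The largest of the called falls was at chr12:32290250-32294726, a region of 4477 bp that lay 29.82 kb from H3K4me3. Its H3K18la percentile was 68.3 and 40.5 at 4 dpi and 94.6 and 97.6 at 2 dpi, and it fell by 1.67 on the normal-score scale (SE 0.24, limma adjusted p = 0.0214). The times did not overlap, and the 4 dpi libraries were themselves far apart. Its H3K27ac percentile went the other way, at 58.7 and 39.5 at 4 dpi and 34.7 and 21.6 at 2 dpi, a shift of 0.57 that did not pass (SE 0.40, limma adjusted p = 0.539). At chr10:93188765-93194906, 6142 bp wide and 15.29 kb from H3K4me3, H3K18la was at 86.0 and 90.9 at 4 dpi and 98.2 and 98.9 at 2 dpi (shift −0.99, SE 0.15, limma adjusted p = 0.0214). There H3K27ac was also lower, at 59.5 and 58.1 at 4 dpi and 92.4 and 92.1 at 2 dpi, with a shift of −1.20 just short of the threshold (SE 0.24, limma adjusted p = 0.0545). The third was chrX:169113672-169116800, the member with the highest H3K18la of all, with a shift of −0.70 (SE 0.11, limma adjusted p = 0.0214) although it stayed near the top at 97.4 and 98.2 at 4 dpi, against 99.6 and 99.7 at 2 dpi. Its H3K27ac percentile was 28.0 and 87.3 at 4 dpi and 78.0 and 86.1 at 2 dpi, low in 4 dpi replicate 1 alone.

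**Figure D4:**
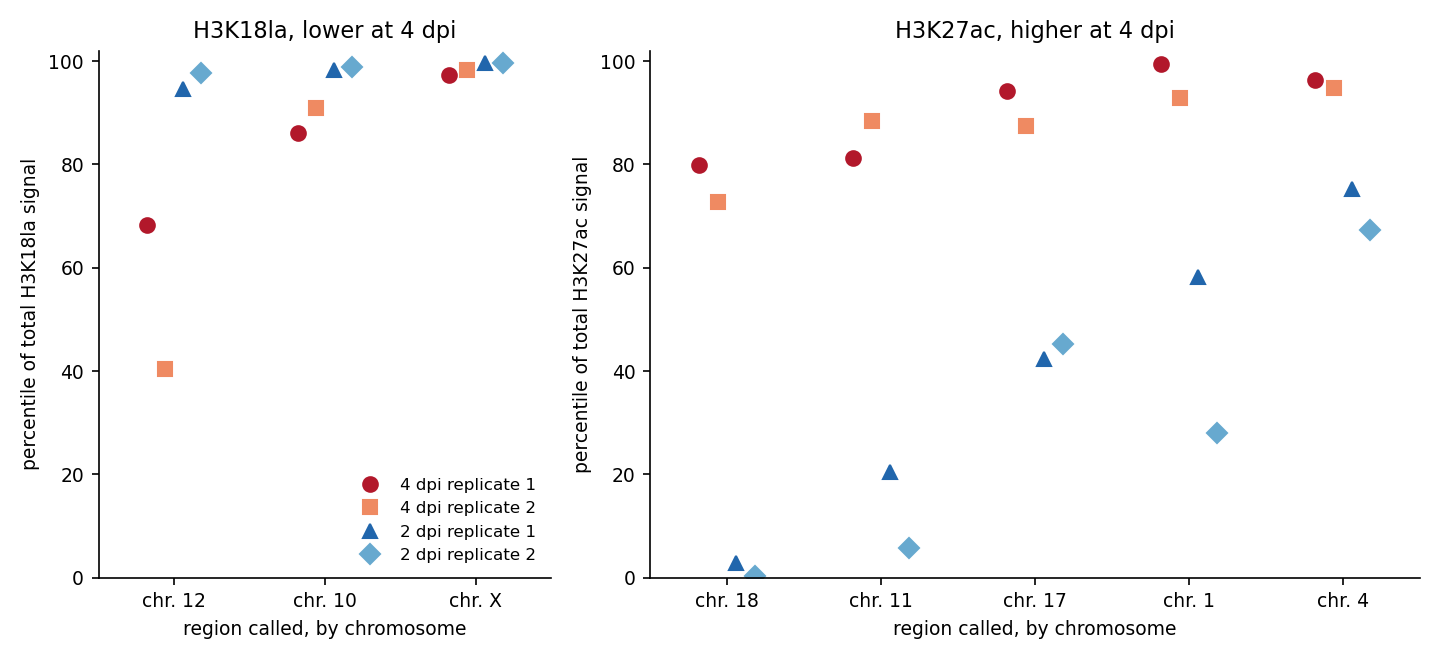
Percentile of summed signal (vertical axis, 0 to 100) in each library at the 3 members called lower for H3K18la at 4 dpi (left) and at the 5 H3K27ac regions over members called higher at 4 dpi (right), named by chromosome. Points are single libraries, red and orange for 4 dpi and blue for 2 dpi, and in each region the times do not overlap.

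Several members had larger H3K18la shifts with wider standard errors and did not pass the test. The largest positive H3K18la shift was at chr7:30809788-30811929, with percentiles of 66.2 and 57.6 at 4 dpi and 1.0 and 16.9 at 2 dpi (shift 1.94, SE 0.52, limma adjusted p = 0.136). At chr7:117012276-117014993 the percentiles were 72.6 and 53.3 at 4 dpi and 12.9 and 2.5 at 2 dpi (shift 1.89, SE 0.47, limma adjusted p = 0.117). The largest negative shift was at chr2:157006696-157008831, with 3.5 and 19.4 at 4 dpi and 80.3 and 77.8 at 2 dpi (shift −2.14, SE 0.42, limma adjusted p = 0.069). At chr10:88547313-88549484 and chr2:117855965-117858305 the shifts were −2.06 (SE 0.78) and −2.00 (SE 0.59). In all 5 regions the times did not overlap, but they were picked for the size of that shift, and none passed the test over all shared regions.

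H3K27ac over the members ranked higher at 4 dpi among all shared H3K27ac regions. The H3K27ac region of a member had a median percentile of 63.4 and 49.3 at 4 dpi and 43.5 and 39.8 at 2 dpi, on average 56.4 ± 10 at 4 dpi and 41.7 ± 2.6 at 2 dpi (SD, n = 2 each, exact permutation p = 0.333, the smallest possible). The library medians followed the order of peak number, 35971 and 31487 at 4 dpi and 29872 and 24976 at 2 dpi. Unscaled maximum H3K27ac signal at the members had medians of 80 and 27 at 4 dpi and 24 and 14 at 2 dpi. The part of list size or depth in the difference between the times was not tested. The median shift was 0.29, against −0.07 over all 13494 shared H3K27ac regions and −0.15 over the 9440 at shared H3K4me3. Distal H3K27ac regions under 8 kb wide shifted up whether lactylated or not, with a median of 0.13 over the 490 at members (56.7% above 0), 0.24 over the 379 with H3K18la in some lists only (64.1%) and 0.18 over the 117 without H3K18la (60.7%), so a positive shift was not particular to the members. At an adjusted p under 0.05 limma called 9 members on 5 H3K27ac regions higher at 4 dpi and 0 lower, against 0.178% of all shared H3K27ac regions higher (24) and 0.00741% lower (1). At an unadjusted p under 0.05, 246 members (20.8%) were higher and 43 (3.64%) lower, against 8.29% and 5.68% of all shared H3K27ac regions.

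The calls and medians changed when a single library was left out, with other measures of signal, in narrow regions and with another set of regions to rank against. Without H3K27ac 4 dpi replicate 1, the broad library, only 1 library was left at 4 dpi. The median shift at members was then 0.158, against −0.0168 over all shared H3K27ac regions. The broad library called a median of 8316 bp of a member's H3K27ac region, against 3204 bp in 4 dpi replicate 2 and 3236 and 1739 bp at 2 dpi. The part of this length in the shift was not tested beyond these values. With maximum signal limma called 0 members higher (124 at unadjusted p), as it called 0 of all 13494 shared H3K27ac regions higher. The median percentile at members was then 41.8 and 39.8 at 4 dpi and 34.4 and 33.6 at 2 dpi. With mean signal per called base limma also called 0 members higher (52 at unadjusted p), and again 0 of all shared H3K27ac regions. For these measures the shares of all shared regions at unadjusted p are not given here. Among the 522 H3K27ac regions over members that are under 8 kb wide, at any distance from H3K4me3, limma called 0 in either direction (33 higher and 21 lower at unadjusted p), with a median shift of 0.133. At unadjusted p, 6.12% of the 490 that were also over 10 kb from H3K4me3 were higher and 3.88% lower. Over all shared H3K27ac regions these shares were 8.29% and 5.68%. Among the 867 over 10 kb from H3K4me3, of any width, limma called 4 higher and 0 lower (144 and 30 at unadjusted p), with a median shift of 0.25. For the 1052 members with an H3K27ac peak over themselves in all 4 lists, the median percentile among all shared H3K27ac regions was 43.1 and 39.8 at 4 dpi and 37.2 and 33.6 at 2 dpi by maximum signal, and 60.2 and 48.2 at 4 dpi and 43.2 and 40.9 at 2 dpi by summed signal. Ranked instead among the 7421 shared H3K18la regions that carry such peaks, the H3K27ac region of the same 1052 members had a median percentile by maximum signal of 21.8 and 21.7 at 4 dpi and 23.5 and 22.0 at 2 dpi. By summed signal it was 28.7 and 20.5 at 4 dpi and 20.7 and 21.8 at 2 dpi, and by the peak over the member itself 21.9 and 25.4 at 4 dpi and 24.8 and 29.9 at 2 dpi. Relative to other lactylated regions, then, the members' H3K27ac was not higher in both 4 dpi libraries by any of these 3 measures.

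The 5 H3K27ac regions called higher were broad as merged, 10.29 to 49.01 kb, and 4 of them held a pair of members each. In each of them the longest call was that of 4 dpi replicate 1. At chr1:194338639-194387650 it was 49.01 kb, against 9.76 kb in 4 dpi replicate 2 and 4.04 and 1.04 kb at 2 dpi. The largest shift was at chr18:9484710-9495001, with H3K27ac percentiles of 79.8 and 72.7 at 4 dpi and 2.9 and 0.4 at 2 dpi (shift 2.98, SE 0.47, limma adjusted p = 0.0312). Its members chr18:9485119-9487965 and chr18:9488409-9495373 had H3K18la percentiles of 87.3 and 49.2, and of 99.4 and 93.2, at 4 dpi, and of 8.6 and 27.1, and of 83.2 and 82.7, at 2 dpi. Both marks were thus higher in both 4 dpi libraries, and the H3K18la shifts of 1.55 and 1.04 did not pass (limma adjusted p = 0.162 and 0.106). The region chr11:83419548-83434047 had H3K27ac percentiles of 81.3 and 88.4 at 4 dpi and 20.4 and 5.8 at 2 dpi (shift 2.24, SE 0.38, limma adjusted p = 0.0381). The H3K18la percentiles of chr11:83422982-83428105 beneath it were 66.2 and 77.6 at 4 dpi and 60.6 and 11.8 at 2 dpi, and those of chr11:83431132-83432918 were 41.6 and 31.9 at 4 dpi and 10.8 and 8.3 at 2 dpi.

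On chromosome 17, chr17:5615440-5634091 had H3K27ac percentiles of 94.3 and 87.5 at 4 dpi and 42.3 and 45.2 at 2 dpi (shift 1.52, SE 0.27, limma adjusted p = 0.0381). Its 2 members had H3K18la shifts among the highest of all, 1.79 at chr17:5622760-5627889, with percentiles of 91.4 and 85.8 at 4 dpi and 48.0 and 13.8 at 2 dpi, and 1.37 at chr17:5618857-5622054, with 76.4 and 78.1 at 4 dpi and 27.5 and 25.8 at 2 dpi (limma adjusted p = 0.069 and 0.0941). On chromosome 4, chr4:10912130-10929826 had H3K27ac percentiles of 96.4 and 94.7 at 4 dpi and 75.3 and 67.3 at 2 dpi (shift 1.14, SE 0.21, limma adjusted p = 0.0386). H3K18la of its members was at 71.7 and 57.5 at 4 dpi and 24.8 and 17.6 at 2 dpi for chr4:10913688-10916776, and at 77.5 and 69.9 at 4 dpi and 57.1 and 21.7 at 2 dpi for chr4:10918019-10921661. The fifth region, chr1:194338639-194387650, overlapped an H3K4me3 peak outside its member and had H3K27ac percentiles of 99.4 and 92.9 at 4 dpi and 58.2 and 28.0 at 2 dpi (shift 2.17, SE 0.35, limma adjusted p = 0.0381). Its member chr1:194369909-194371246 had H3K18la percentiles of 49.5 and 19.6 at 4 dpi and 7.3 and 29.7 at 2 dpi, which overlapped between the times. At 4 of the 9 members an H3K27ac peak was missing over the member itself in 1 or 2 lists.

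The shifts of both marks went the same way more often than not. Over 1182 members the H3K18la shift and the H3K27ac shift, which come from separate libraries, had Pearson r = 0.38 and Spearman rho = 0.37, and 62.8% had the same sign. The points are not independent, since neighbouring members share H3K27ac regions and all members share libraries. The paper states that H3K18la and the other marks were profiled in the same samples, so separate libraries need not mean separate cells. Of 69 members past an unadjusted p of 0.05 for both marks, 52 were higher for both at 4 dpi, 15 were lower for both and 2 moved in opposite directions. Taken by itself, H3K27ac was higher at 246 members and lower at 43 by that threshold, and H3K18la at 94 and 123. Neither these counts nor the share with the same sign was set against other regions. Whether the marks moved together more at members than elsewhere was therefore not tested. The dense run on chromosome 5 was a place with lower H3K27ac at 4 dpi throughout, with shifts of −1.13 to −0.25 over its 9 members and H3K18la shifts of −0.64 to 0.11, and none of these passed the test. In the chr4:47250499-47334236 run, H3K27ac shifts were 0.13 to 1.07 and H3K18la shifts −0.20 to 0.55.

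**Figure D5:**
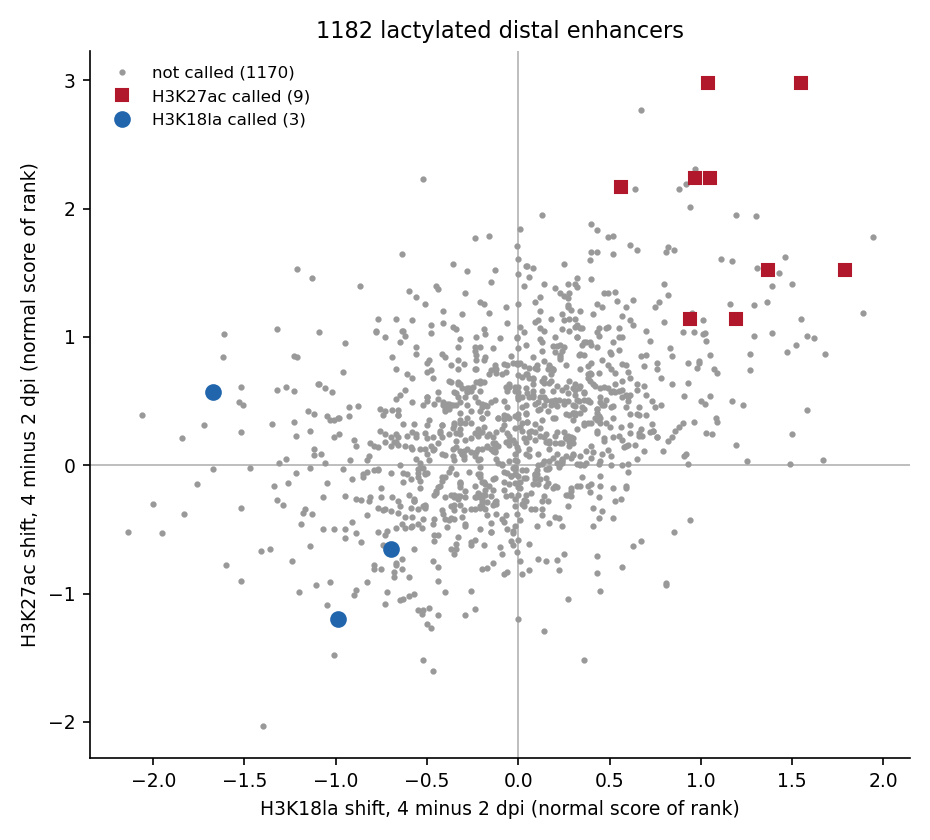
Shift of H3K18la (horizontal axis) and of H3K27ac (vertical axis) at 4 against 2 dpi, in normal scores of rank, for 1182 lactylated distal enhancers. Grey points were not called, red squares are the 9 members under H3K27ac regions called higher and blue circles the 3 members called lower for H3K18la, and most points lie above 0 on the H3K27ac axis (69.0%).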

How the data were processed

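CUT&Tag peak lists of 16 libraries were analysed. The labels' processing notes name Trim Galore 0.6.6, Bowtie2 2.4.4, SAMtools 1.13, bedtools 2.30, SEACR 1.3 and GRCm39. The deposited lists hold, for each peak called by the authors with SEACR, the total signal and the maximum signal of read coverage, with 1 list per library and no scaling between libraries. The 4 dpi H3K27me3 lists number their replicates opposite to the sample titles, and the titles were followed.

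Peaks were merged, ranked and compared in Python 3.11.15 with numpy 2.4.6 and pandas 2.3.3, and limma 3.58.1 (trend and robust options) was run in R 4.3.3 on normal scores of within-list ranks. Other measures (maximum signal, mean signal per called base, log2 of median-scaled signal), a replicate block, leaving out each library and other distance, width and overlap limits were tried. The restrictions to narrow or to distal H3K27ac regions, the median shifts and the ranking among lactylated regions were added after the data were seen.

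Members and lists were chosen with earlier results of these data known. Regions named were those called in a time test, the highest 6 for H3K18la and 4 for H3K27ac, the 4 with the largest rank difference between the marks in each direction, the 3 largest shifts in each direction, the 3 nearest each limit and the densest runs. Members with H3K27me3 in 4 lists and the farthest member were added after their values were seen. Gene context, gene lists, marker genes, motifs and sequences were planned but are not given, since the annotation at hand is of GRCm38 and the lists are of GRCm39, with peaks beyond the GRCm38 chromosome ends. The macrophage label was therefore not checked against marker genes.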

Additional observations from a re-analysis of the deposited data

How the results depend on the processing

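Of 88 recomputed values of the main results, 62 kept their direction and, for counts, stayed within 1.5 times. Part of this was fixed in advance. A paired difference with the same sign in every library cannot reverse when a library is left out. Places with strong peaks of every mark overlap an H3K4me3 peak, so leaving those places out, another setting, could not remove a member. The number of members was 779 with a distance of over 20 kb and stayed within 1.5 times under every other limit and without any single library. The strength difference from promoter regions, −5.85 by summed signal, was 1.02 by maximum signal. For H3K18la, limma called 0 members lower with maximum signal and 0 with mean signal per called base, and under both it called 0 of all shared H3K18la regions lower. With log2 of median-scaled signal it called 6 higher and 13 lower (0.386% and 0.826% of all shared H3K18la regions). Without single libraries it called 0 to 7 members higher and 0 to 44 lower, the highest counts without 4 dpi replicate 2 (0.601% and 2.45% of all). For H3K27ac it called 0 higher with maximum signal and 0 with mean signal per called base, and under both 0 of all shared H3K27ac regions higher. It called 0 of 490 narrow distal and 0 of 522 narrow regions (both chosen after the data were seen). With log2 of median-scaled signal it called 23 higher and 2 lower (0.474% and 0.0296% of all shared H3K27ac regions). Without single libraries it called 0 to 69 higher, the most without 2 dpi replicate 1 (2.2% of all), and 0 to 3 lower, the most without 4 dpi replicate 1 (0.0889%). The H3K27ac shift over chr11:83422982-83428105, 2.24 by summed signal, was −0.09 by mean signal per called base. The cause of these changes was not tested.

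Replicate numbers did not pair the libraries, as deviations of same-numbered libraries correlated at −0.065 for H3K18la and 0.086 for H3K27ac. With the replicate number as a block, limma called 15 members higher and 30 lower for H3K18la, beside 0.922% and 1.42% of all shared regions, and 127 higher and 16 lower for H3K27ac, beside 3.31% and 0.993%.

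With 2 libraries per time and unknown depth, small shifts could not be resolved, and ranks show only changes relative to the other regions of a list. The planned gene context, gene lists and sequence windows were not run.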
